A study of Ictidomys tridecemlineatus with 5 samples.

Results

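The Usher proteins are the products of genes whose loss causes Usher syndrome, an inherited combination of deafness with degeneration of the retina. Members were taken as all transcripts whose Swiss-Prot entry name, before its species code, was MYO7A, USH1C, CAD23, PCD15, USH1G, GPR98, WHRN, CLRN1 or CIB2. These are 9 of the 13383 proteins that had transcripts in both tissues and reached 1 RPKM in at least 1 of them, and all 9 members reached it. RPKM is a read count scaled for the length of the transcript and the depth of sequencing. Members carried 34 transcripts in eye and 36 in retina. CAD23, PCD15 and GPR98 are the Swiss-Prot names of cadherin 23 (gene CDH23), protocadherin 15 (PCDH15) and the adhesion G protein-coupled receptor V1 (ADGRV1).

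RNA came from eye and from isolated retina of wild-type thirteen-lined ground squirrels (Ictidomys tridecemlineatus), a day-active hibernator with a cone-rich retina. There were 2 eye libraries and 3 retina libraries, and the RNA behind a library was pooled from 4 animals, per the labels. The labels state no age, sex or treatment. Each tissue has 1 value per transcript, not 1 per library, so that the spread between libraries is unknown and no difference between the tissues could be tested.

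In hair cells of the inner ear, Usher proteins tie the stereocilia together: cadherin 23 and protocadherin 15 form the tip link, and a complex of myosin VIIa, harmonin and SANS anchors it to actin. Whirlin and ADGRV1 belong to the ankle links at the base of the hair bundle. In photoreceptors the same proteins lie at the connecting cilium, the periciliary membrane and the calyceal processes, and at the synapse. Myosin VIIa also moves melanosomes in the pigment epithelium.

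All 9 Usher proteins had transcripts in both tissues, at low to middle levels, and the levels in eye and retina were less than 2-fold apart for each of them. By the highest transcript of each, whirlin led in both tissues, followed by harmonin and myosin VIIa, and SANS was among the lowest; by the best-matching transcript harmonin led whirlin in both. By the highest transcript, protocadherin 15, harmonin, myosin VIIa, whirlin and ADGRV1 were higher in retina, by 1.81, 1.61, 1.54, 1.29 and 1.29 times in RPKM. Myosin VIIa was higher in eye by the best-matching transcript, and ADGRV1 by the sum of its transcripts. Clarin 1, SANS and cadherin 23 were slightly higher in eye, and CIB2 did not differ beyond counting error. With both tissues rescaled to an equal total, SANS, cadherin 23 and CIB2 were lower in eye. The 0 members at least 2-fold apart stand beside 15.4% of all 13383 proteins. The 5 of 9 members lower in eye stand beside 50.3% of all proteins, so this count is close to the background.

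Each difference is the log2(RPKM + 1) of eye less that of retina, a scale that understates the difference of low transcripts. The level of a protein is the RPKM of its highest transcript. Intervals are 95% Poisson intervals of the reads behind a value and cover counting error only, since reads from PCR are not independent molecules. They also take each recovered read as counted on 1 transcript only, which was not tested, so counting error itself may be misjudged. The fewest reads behind a member's level were 643, for clarin 1 in eye. Over the 9 members the differences ran from -0.72 to 0.26 with a median of -0.24. The median over all proteins was -0.0035 and their middle 50% lay between -0.32 and 0.44.

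**Figure D1:**
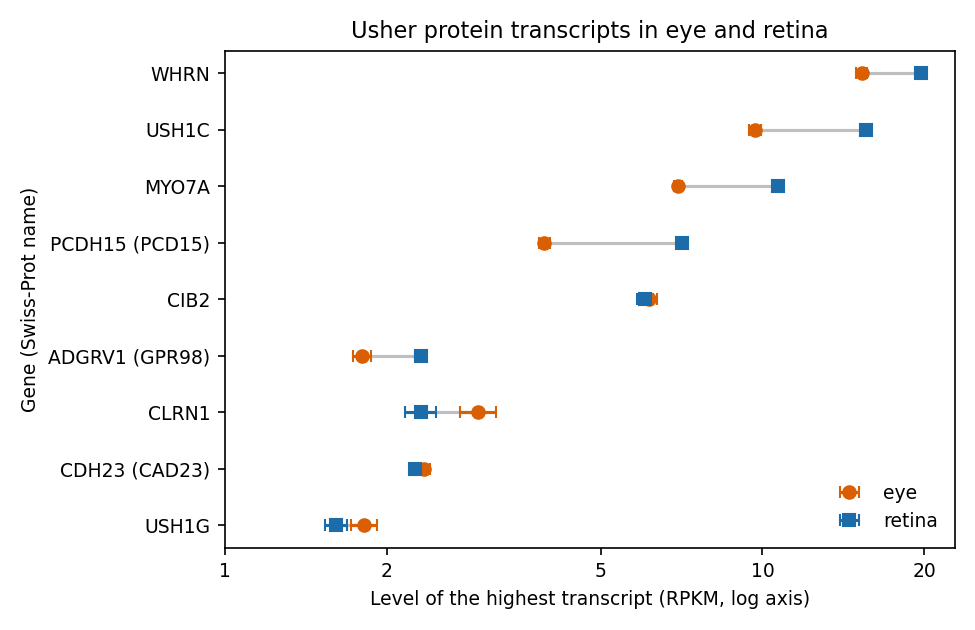
Level of the highest transcript of each Usher protein (RPKM, log axis) in eye (circles) and retina (squares), with 95% counting intervals. WHRN is highest at 15.3 and 19.7 RPKM, PCDH15 has the widest gap, and CIB2 and CDH23 nearly coincide.

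The motor of the group is myosin VIIa (MYO7A), an unconventional myosin of stereocilia, photoreceptors and pigment epithelium. Its highest transcript stood at 6.96 RPKM in eye (6.84 to 7.08) and 10.7 RPKM in retina (10.6 to 10.8), a difference of -0.55 (-0.58 to -0.53). These 2 transcripts, of 6547 and 6987 bases, aligned to 1352 and 1288 residues of the protein. A longer transcript in each tissue, of 8888 and 8604 bases, aligned to 2209 and 2120 residues. That longer transcript stood at 4.43 RPKM in eye and 3.95 RPKM in retina, a difference of 0.13, so that the direction for myosin VIIa depended on the transcript. The transcript with the shorter alignment was 1.57 times the longer one in eye and 2.70 times in retina. The remaining MYO7A transcripts lay between 1.77 and 1.94 RPKM in eye and between 0.446 and 1.88 RPKM in retina.

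Harmonin (USH1C) is the PDZ-domain scaffold that binds the tails of the other proteins of its complex. Its highest transcript was at 9.69 RPKM in eye (9.43 to 9.96) and 15.6 RPKM in retina (15.3 to 15.9), a difference of -0.63 (-0.68 to -0.59). The transcripts compared here agreed in their match, with 552 residues aligned to human harmonin in both tissues. A second eye transcript with the same alignment, of 2206 bases, stood at 9.60 RPKM. In retina a transcript of 1252 bases aligned to 196 residues was at 14.2 RPKM. Another retina transcript, of 4840 bases, was assigned to harmonin through 81 residues with 59% positives, and only 5.02% of its bases lay in that alignment. It was at 11.7 RPKM and enters the sums, but not the level used here.

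SANS (USH1G) is an ankyrin-repeat scaffold that joins harmonin and myosin VIIa. It stood at 1.81 RPKM in eye (1.71 to 1.92) and 1.61 RPKM in retina (1.54 to 1.69), a difference of 0.11 (0.041 to 0.18). Rescaling both tissues to an equal total turned this difference to -0.067. The 2 transcripts covered the protein unequally, with 265 residues aligned in eye and 435 in retina. A further eye transcript, of 610 bases, aligned to 176 residues of the mouse protein and stood at 0.856 RPKM.

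Cadherin 23 forms the upper part of the tip link. It was assembled in 1 transcript per tissue, of 10900 and 10747 bases, and both aligned to 3317 residues of the rat protein with 95% positives. The level was 2.35 RPKM in eye (2.29 to 2.40) and 2.25 RPKM in retina (2.21 to 2.30). The difference of 0.041 (0.0094 to 0.073) corresponds to 1.04 times, and it turned to -0.15 when both tissues were rescaled to an equal total.

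Protocadherin 15 forms the lower part of the tip link and had the widest gap between the tissues of the 9 members. It stood at 3.92 RPKM in eye (3.83 to 4.02) and 7.10 RPKM in retina (6.99 to 7.21), a difference of -0.72 (-0.75 to -0.69). Of all proteins, 7.43% had a lower difference. Both the eye transcript, of 6804 bases, and the retina transcripts, of 6627 and 6840 bases, aligned to 1748 residues with 90% positives. The second retina transcript was at 6.93 RPKM, so either one gave nearly the same difference. Tip-link partners thus stood apart in level: protocadherin 15 was above cadherin 23 in both tissues.

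CIB2 is a calcium- and integrin-binding protein of the hair cell transduction complex. Its single transcripts, of 1660 and 1577 bases, aligned to the same 187 residues of the rat protein with 100% positives. They stood at 6.14 RPKM in eye (5.91 to 6.38) and 6.05 RPKM in retina (5.85 to 6.25). The interval of the difference, 0.019 (-0.043 to 0.082), spans 0, the only member for which it did. Rescaling to an equal total gave -0.22.

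Whirlin (WHRN), a PDZ scaffold that occurs in long and short forms, had the highest level of the members by its highest transcript. That transcript was at 15.3 RPKM in eye (14.96 to 15.7) and 19.7 RPKM in retina (19.4 to 20.1), a difference of -0.34 (-0.38 to -0.31). Those transcripts, of 1839 and 1794 bases, aligned to only 169 residues, with 98% positives. Transcripts with the longest alignments stood lower, at 8.57 RPKM in eye (484 residues) and 11.9 RPKM in retina (889 residues), below harmonin in both tissues. In each tissue the short-match transcript was thus above the longest match, by 1.79 times in eye and 1.65 times in retina. Retina held 6 whirlin transcripts and eye 2. All 6 retina transcripts, at 10.7 to 19.7 RPKM, were above the 4640-base eye transcript, and 2 of them were above the higher eye transcript.

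ADGRV1 (GPR98), a very large adhesion receptor of the ankle links and the periciliary membrane, was assembled in pieces. Its 18 eye transcripts ran from 159 to 5521 bases and its 13 retina transcripts from 127 to 8016 bases. The highest was the longest in both tissues, at 1.80 RPKM in eye (1.73 to 1.87) and 2.31 RPKM in retina (2.26 to 2.37), a difference of -0.24 (-0.29 to -0.20). All of the other 17 eye pieces lay under 1 RPKM, between 0.351 and 0.777. In retina 1 further piece, of 2380 bases, reached 1.76 RPKM, and 11 lay between 0.265 and 0.546 RPKM. Over all pieces the length-weighted mean was 1.10 RPKM in eye and 1.41 RPKM in retina.

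Clarin 1 (CLRN1) is a small membrane protein with several membrane-spanning stretches, found in hair cells and retina. Its highest transcript stood at 2.96 RPKM in eye (2.74 to 3.20) and 2.31 RPKM in retina (2.17 to 2.47). The difference of 0.26 (0.15 to 0.36), or 1.28 times in eye, was the largest of the members that were higher in eye. Rescaling to an equal total lowered it to 0.058. All 4 clarin 1 transcripts aligned to 232 residues with 93% positives. The second transcripts stood at 2.90 RPKM in eye and 2.15 RPKM in retina, so both eye transcripts were above both retina transcripts.

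**Figure D2:**
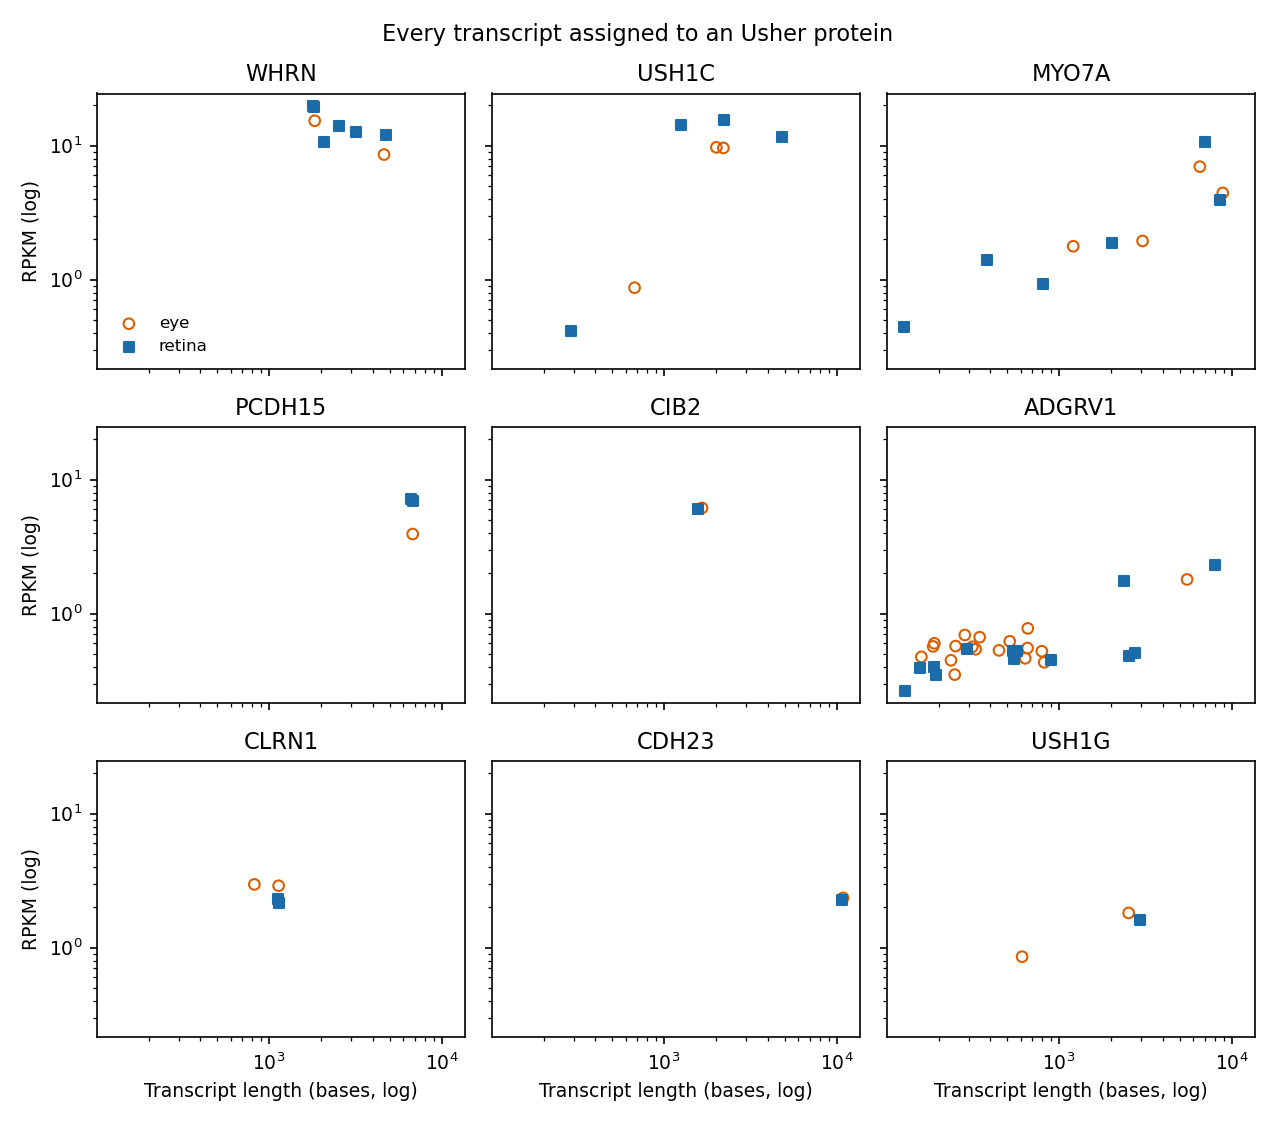
Length in bases (x, log axis) and level in RPKM (y, log axis) of every transcript assigned to each Usher protein, in eye (open circles) and retina (filled squares). ADGRV1 is split into 18 and 13 pieces, mostly under 1 RPKM, while CDH23 and CIB2 have 1 transcript per tissue.

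The order of levels by the highest transcript was much alike in the tissues. In eye it ran from whirlin through harmonin, myosin VIIa, CIB2, protocadherin 15, clarin 1 and cadherin 23 to SANS and ADGRV1, and only SANS and ADGRV1 overlapped in their counting intervals. In retina protocadherin 15 stood above CIB2, and ADGRV1, clarin 1 and cadherin 23 overlapped in neighbouring pairs, with SANS lowest. Whirlin was above 68.9% of the 15287 proteins in the eye table and above 74.9% of the 14600 in the retina table. SANS was above 16.3% and 17.0% of them. With best-matching transcripts harmonin was above whirlin, at 9.60 against 8.57 RPKM in eye and 15.6 against 11.9 RPKM in retina, and myosin VIIa, at 4.43 and 3.95 RPKM, was below CIB2. The median member stood at 3.92 RPKM in eye and 6.05 RPKM in retina, below the medians of 9.41 and 8.86 RPKM over all proteins compared.

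Matches to the Swiss-Prot proteins were close for most of the 70 transcripts. In all, 50 had 90% positives or more and 5 had under 80%, and 55 had a human protein as best hit. For 6 members (cadherin 23, CIB2, clarin 1, protocadherin 15, harmonin and whirlin) the level in both tissues came from transcripts with the same hit, score and number of aligned residues. The tables give no alignment positions, and a level covers the whole transcript, of which 27.6% and 28.3% of the bases were aligned for whirlin. For myosin VIIa, SANS and ADGRV1 the number of aligned residues differed.

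Summing the transcripts of a protein moved the difference beyond its counting interval for 6 of the 9 members, and taking the best match turned it for myosin VIIa. It left cadherin 23 and CIB2, with 1 transcript per tissue, where they were. Protocadherin 15, harmonin and whirlin were lower in eye under every alternative that gave a value. The pseudocounts, the filters and the limits on length and hits kept the same transcripts and could not turn the direction. With transcripts summed per protein these 3 members passed 2-fold, at -1.61, -1.02 and -1.84. By that measure 19.3% of all proteins were at least 2-fold higher in retina. Retina had more transcripts than eye for all 3, and the part of that in the sums was not tested. Summing turned ADGRV1 to 0.29, with 18 pieces in eye against 13 in retina. Rescaling the highest transcripts to an equal total lowered the median of all proteins to -0.25, and 8 of 9 members were then lower in eye, beside 66.3% of all proteins. Relative to that median 5 members lay below and 4 above, as without rescaling. Rescaling applies 1 factor to all values of a tissue, so this split could hardly change.

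**Figure D3:**
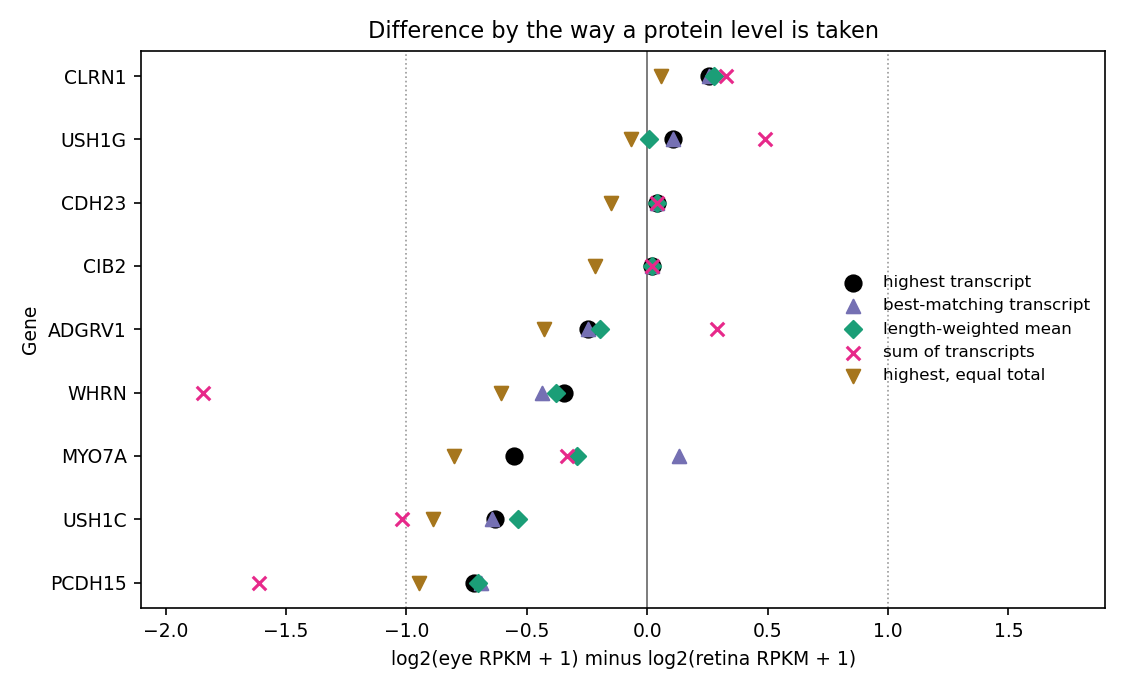
Difference of each Usher protein (x, log2(RPKM + 1) in eye less that in retina) by 5 ways of taking its level. Dotted lines mark 2-fold; PCDH15, USH1C and WHRN stay left of 0 throughout, MYO7A crosses 0 with the best-matching transcript and ADGRV1 with the sum.

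The tissue labels were set against marker lists. Of 19 photoreceptor markers 18 were lower in eye, beside 50.3% of all proteins (median -0.69), with summed levels of 5941 RPKM in eye and 10444 RPKM in retina. The markers that led these sums lay on short transcripts, of 131 to 449 bases. Protocadherin 15 at -0.72 lay just below the photoreceptor median, and the other 8 Usher proteins lay above it, harmonin the nearest at -0.63. Pigment epithelium markers were higher in eye for 8 of the 9 measured (median 0.91), beside 49.7% of all proteins, with sums of 1876 and 719.6 RPKM. With best-matching transcripts 6 of these 9 were higher in eye, the median was 0.20, and 2 were at least 2-fold higher in retina, beside 3.07% of all proteins. RPE65, the retinoid isomerase of that epithelium, was still at 17.5 RPKM in retina. All 7 melanocyte markers were at least 2-fold higher in eye, beside 11.8% of all proteins, and their median was 3.72, with sums of 333.1 and 14.7 RPKM. Lens markers had a median of 7.54 over 6 members and corneal epithelium markers 9.25 over 3, with 3 more of each in the eye table only. Of 6 skeletal muscle markers compared 4 were higher in eye, beside 49.7% of all proteins, and 2 lower (median 3.72). The other 3 had no entry in the retina table. Over all proteins, 13949 of the 15287 in the eye table were in both tables. Among the 2 muscle markers lower in eye was CKM, at 210.1 RPKM on 2032 bases in eye and 583.6 RPKM on 115 bases in retina. With transcripts of 200 bases or more only 1 of the 6 was lower in eye (median 5.45). By that measure 5 were at least 2-fold higher in eye, beside 11.7% of all proteins. The part of these cell types in the Usher protein levels was not tested, and fewer cells of a type and less RNA per cell cannot be told apart in such tissue samples.

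Proteins that bind the Usher proteins or work beside them were more scattered between the tissues. Of 17 network partners 15 were compared (median -0.018). In eye 8 were lower and 7 higher, beside 50.3% of all proteins lower, so this count is close to the background. At least 2-fold higher in eye were 3 of them, beside 11.8% of all proteins. RAB27A, the GTPase that recruits myosin VIIa to melanosomes through MYRIP, was at 19.7 RPKM in eye and 5.41 RPKM in retina, a difference of 1.69. MYRIP itself was at 8.05 and 6.35 RPKM. NINL, a centrosomal and ciliary protein, was at 6.12 and 2.08 RPKM, and PALS1, a polarity scaffold, at 16.2 and 6.83 RPKM. These last 2 fell just short of 2-fold after rescaling to an equal total, at 0.99 and 0.88.

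One partner was at least 2-fold higher in retina, beside 3.6% of all proteins. It was SPTBN5, the giant spectrin that links myosin VIIa to cargo in photoreceptors, at 6.98 RPKM in eye and 48.3 RPKM in retina. The retina value came from a transcript of 427 bases, and with best-matching transcripts the values were 6.98 and 10.6 RPKM, a difference of -0.54. PLEKHB1, a pleckstrin-domain protein that binds myosin VIIa, had the highest level of the list at 588.2 and 680.2 RPKM. Its best-matching transcripts differed far more, at 69.9 and 588.2 RPKM. The actin bundler FSCN2 was at 66.3 and 59.5 RPKM and the palmitoylated scaffold MPP1 at 19.6 and 19.1 RPKM, both slightly higher in eye and both lower after rescaling to an equal total.

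Genes of hair cell transduction and stereocilia were partly present in these eye tissues. Of 15 such genes 8 were compared, and 7 of them were lower in eye (median -0.52), beside 50.3% of all proteins. With rescaling to an equal total all 8 were lower, beside 66.3% of all proteins. ESPN, an actin bundler, was the most abundant at 30.1 RPKM in eye and 44.4 RPKM in retina, although its length-weighted mean differed by 0.15 in the other direction. MYO3B and MYO3A, myosins with a kinase domain, were at 5.86 and 11.5 RPKM and at 1.34 and 4.33 RPKM. EPS8, a capping protein, was at 12.4 RPKM in both tissues, and LHFPL5, a partner of protocadherin 15 in the transduction channel, at 3.77 and 4.96 RPKM. TOMT, a protein needed to carry the channel to the hair bundle, had the widest gap, at 0.623 RPKM on 340 bases in eye and 7.79 RPKM on 4223 bases in retina. MYO3A and TOMT were the 2 members of the list at least 2-fold higher in retina, beside 3.6% of all proteins. MYO3A was no longer so with best-matching transcripts, at -0.55, a measure by which 3.07% of all proteins were that much higher in retina. The channel subunit TMC1 stayed under 1 RPKM in both tissues, at 0.799 and 0.576. No entry was found for 4 genes of the list, and LOXHD1 and STRC were in the retina table only, both under 1 RPKM. Over all proteins, 13949 of the 14600 in the retina table were in both tables.

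Of 10 close relatives of the Usher proteins, 4 were compared, 3 were in 1 table only, 1 was under 1 RPKM in both tissues and 2 were found in neither. MYO7B, CIB4 and CLRN2 were in the retina table alone, at 0.559, 0.574 and 0.508 RPKM, far below MYO7A and CIB2 there and below CLRN1. Of all 14600 proteins in the retina table, 13949 were in both tables. Of the 4 relatives compared, CIB1 was at 34.6 RPKM in eye and 13.1 RPKM in retina and MYO10 at 8.39 and 6.26 RPKM. CDHR1, a cadherin of photoreceptor discs, was at 102.8 and 153.2 RPKM, and CDHR2 at 2.97 and 8.29 RPKM. The median of the 4 differences was -0.10. CDHR2 was under 2-fold with best-matching transcripts, at -0.80.

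Proteins of the photoreceptor connecting cilium, where Usher proteins lie, were all lower in eye. This held for 12 of 12 (median -0.47), beside 50.3% of all proteins. With best-matching transcripts it held for 9 of the 11 left to compare (median -0.26), beside 48.9% of all proteins. MAK, a ciliary kinase, was at 36.1 RPKM in eye and 72.3 RPKM in retina. The axonemal proteins RP1L1 and RP1 were at 16.8 and 28.7 RPKM and at 15.6 and 25.9 RPKM. RPGRIP1, a scaffold of the cilium, was at 8.66 RPKM in eye and 44.3 RPKM in retina, the latter on a transcript of 436 bases, and at 8.66 and 30.5 RPKM with best-matching transcripts. RPGRIP1 and NPHP4, the latter at 1.45 and 4.63 RPKM, were the 2 members at least 2-fold higher in retina, beside 3.6% of all proteins. NPHP4 differed by only -0.26 with best-matching transcripts. Beside these 12 of 12, the Usher proteins had 5 of 9 lower in eye, and the difference between the lists was not tested.

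**Figure D4:**
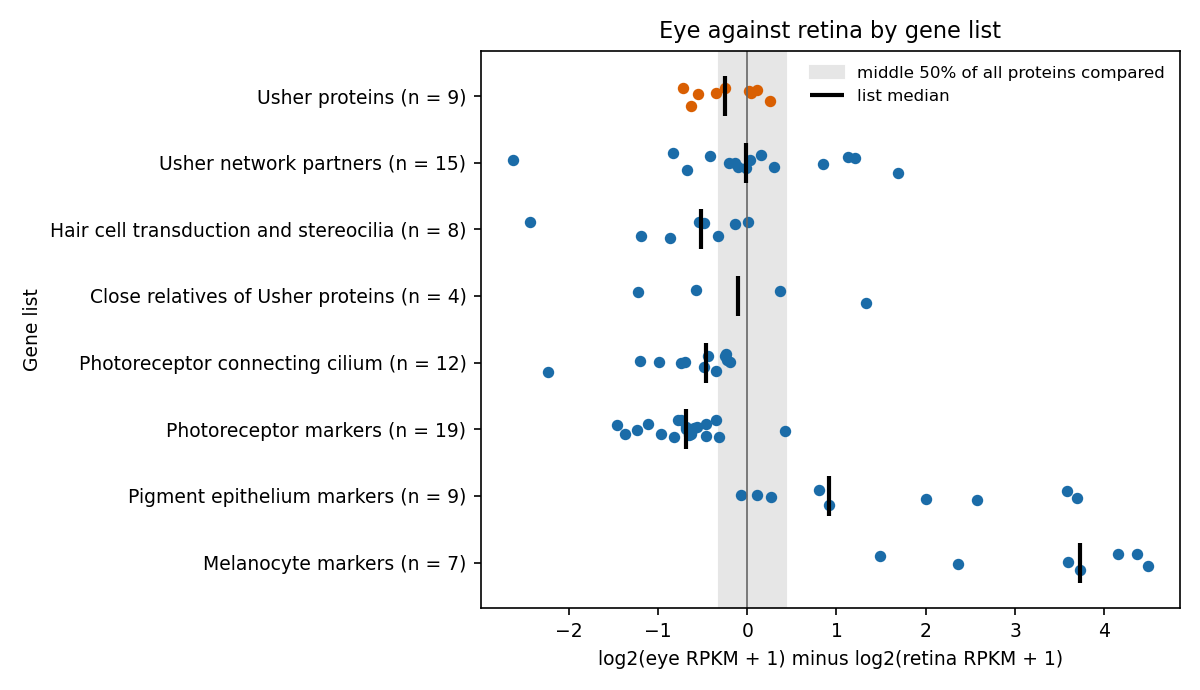
Difference of each gene (x, log2(RPKM + 1) in eye less that in retina) by list, with list medians as bars and the middle 50% of all 13383 proteins shaded. Usher proteins (orange) lie between -0.72 and 0.26, all 12 connecting cilium genes lie below 0, and all 7 melanocyte markers lie above 1.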

How the data were processed

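The values deposited by the authors were taken to be RPKM because of their steps, since the file headers name only an expression value: value times length was a whole multiple of 1 constant per table, within 0.01 reads, for 100% of transcripts. The constants correspond to totals of 264219334 reads for eye and 355988270 for retina, and the reads recovered summed to 19.2 and 10.5 times these, so reads may be counted on several transcripts, or the scaling may rest on something else than the mapped reads, which would change what the RPKM and the differences between tissues mean; neither was tested. Reads were mapped with Bowtie, per the submitters' processing notes; no source used here names the assembler or the counting mode. Best Swiss-Prot hits carry an E-value, an alignment score and a percent of positives, per the file headers.

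Hits were joined to levels on the transcript ID, and proteins by entry name. The level is that of the highest transcript, with a pseudocount of 1 RPKM and a minimum of 1 RPKM in either tissue. A fold of 2 is a mark and no test. Python 3.11.15, pandas 2.3.3 and scipy 1.17.1 were used, and the steps were tested on simulated data. Both simulated tissues were drawn from the retina transcripts, so transcripts that differ between the tissues were not covered. Members and lists were chosen with earlier results of these data known. All 9 members are named; of the pathway lists, up to 4 genes with the highest mean level and those at least 2-fold apart if 5 or fewer, with MYRIP, TMC1 and genes in 1 table named beyond this rule after their values were seen. Marker lists are given by counts and sums, with RPE65 and CKM named after their values were seen. Alternatives changed the transcript, the hits, the scaling, the pseudocount or the filter. Gene symbols were matched to RefSeq names (assembly mIctTri1.hap1), with 115 of 123 found, among them all 9 members.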

Additional observations from a re-analysis of the deposited data

How the results depend on the processing

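No paired analysis was possible because the tables hold 1 value per tissue and no column per library; leaving out a library was not possible either. Alignment positions and percent identity were not used here, as the tables give neither, so a comparison of shared residues and a limit on identity were not run. Alternatives on positives, on equal matches and on sums with an equal total were chosen after seeing the data. The count of members at least 2-fold higher in eye was 0 under every alternative run, beside 6.1% to 16.8% of all proteins. That in retina was 3 with sums, beside 19.3% of all proteins, and 3 with sums at an equal total, beside 35.3%. It was 0 under the others, beside 2.0% to 6.7%. The count lower in eye, 5 of 9, was 4 with best-matching transcripts and 4 with sums, beside 48.9% and 53.2% of all proteins. It was 8 with an equal total and 8 with sums at an equal total, beside 66.3% and 73.0%. With the filter at 10 RPKM, where only 3 members remained, it was 3, beside 52.1%. With equal matches, where 6 remained, it was 3, beside 51.8%.

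The median of -0.24 was 0.019 with best-matching transcripts and 0.019 with sums. It was -0.20 with length-weighted means, -0.43 with an equal total, -0.53 with sums at an equal total, -0.16 with equal matches, -0.55 with the filter at 10 RPKM, -0.35 with a pseudocount of 0.1 and -0.11 with 5. MYO7A turned to 0.13 with best-matching transcripts and GPR98 to 0.29 with sums. An equal total turned CAD23 to -0.15, USH1G to -0.067 and CIB2 to -0.22, and sums at an equal total turned CAD23 to -0.41, CLRN1 to -0.21 and CIB2 to -0.53. Of 126 single-protein values under an alternative, 87 moved by no more than the counting interval and 31 moved further without a change of sign. The limits on length, E-value, mammalian hits and positives, and dropping the filter, kept the highest transcript of every member. Those values could not move and are among the 87, so that count is no measure of stability. A change of pseudocount could move a value but not turn its sign. Except where members or scaling changed by construction, the cause was not tested. Each level rests on at least 643 reads.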
